A study of Mus musculus with 2 samples.

Results

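Chemokines are small secreted or membrane-bound proteins that leukocytes read through G protein-coupled receptors, and blood vessels display them on their inner surface to stop passing cells. Cxcl9 and Cxcl10 are interferon-induced ligands of CXCR3 on activated T and NK cells, Cxcl1 draws neutrophils through CXCR2, Ccl2 and Ccl7 draw monocytes through CCR2, and Ccl5 draws T cells and monocytes. Cxcl16 and Cx3cl1 are made as transmembrane proteins that bind CXCR6 and CX3CR1, and Ccl21a is the lymphatic and lymph node ligand of CCR7. These 9 genes, chosen by their symbols, are described here out of 31055 counted features in blood endothelial cells (BECs) and the cells sorted with them from 2 mouse tumor models.

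Tumors came from a mammary cancer line (PyMT) or a pancreatic cancer line (KPC). Each line was implanted orthotopically, as 100000 cells, into wild-type female C57BL6 mice aged 6 weeks, and tumors were taken 10 days later. All tumors were digested with collagenase for 30 min, at 400 U/mL for PyMT and 500 U/mL for KPC, then depleted of leukocytes, erythroid, epithelial, podoplanin-positive and dying cells with magnetic beads and sorted for BECs. Each model had 1 droplet library, the number of mice behind it is not stated in the sources used here, and both the v2 and the v3 chemistry are named for them. The tumor model, the dose of collagenase and the library cannot be told apart, no test was possible, and every interval given is a 95% interval for counting error only.

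On the GRCm38 assembly (GENCODE M21 gene models), Cxcl1 (ENSMUSG00000029380) lies at chr5:90891241-90893115 on the forward strand, and Cxcl9 (ENSMUSG00000029417) and Cxcl10 (ENSMUSG00000034855) lie at chr5:92321347-92328079 and chr5:92346638-92348889 on the reverse strand, 18.6 kb apart. Ccl2 and Ccl7 are forward-strand neighbors at chr11:82035571-82037453 and chr11:82045712-82047525, 8.26 kb apart. Ccl5 lies at chr11:83525778-83530518 and Cxcl16 at chr11:70453983-70459984, both on the reverse strand. Cx3cl1 lies at chr8:94772009-94782427 on the forward strand and Ccl21a at chr4:42772860-42773993 on the reverse strand.

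Promoters are shown for 3 of the genes, as the 250 bases that precede the RefSeq start, 5′ to 3′ on the gene's strand (RefSeq, GRCm38.p6, which held 5 of the 9 promoters). They were picked because Cxcl1 was highest in other cell classes than Cxcl9 and Cxcl10, which often lay in the same cells. They lie at chr5:92328080-92328329 for Cxcl9, chr5:92348890-92349139 for Cxcl10 and chr5:90890995-90891244 for Cxcl1, where the last bases of the window lie inside the GENCODE gene model. Capitals mark matches, on either strand, to the core of the interferon response element (GAAA and GAAA with any 2 bases between them) or to the kB consensus, motifs chosen after the levels had been seen.
Cxcl9: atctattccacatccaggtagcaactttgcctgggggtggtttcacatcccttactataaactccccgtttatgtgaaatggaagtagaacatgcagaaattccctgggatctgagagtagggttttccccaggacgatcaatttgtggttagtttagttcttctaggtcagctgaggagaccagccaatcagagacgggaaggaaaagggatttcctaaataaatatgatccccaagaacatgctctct
Cxcl10: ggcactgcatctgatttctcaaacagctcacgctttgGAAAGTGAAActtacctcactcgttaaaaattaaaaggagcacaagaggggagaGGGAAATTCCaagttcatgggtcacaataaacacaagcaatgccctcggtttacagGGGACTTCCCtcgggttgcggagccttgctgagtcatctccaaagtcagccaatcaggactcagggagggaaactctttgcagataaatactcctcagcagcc
Cxcl1: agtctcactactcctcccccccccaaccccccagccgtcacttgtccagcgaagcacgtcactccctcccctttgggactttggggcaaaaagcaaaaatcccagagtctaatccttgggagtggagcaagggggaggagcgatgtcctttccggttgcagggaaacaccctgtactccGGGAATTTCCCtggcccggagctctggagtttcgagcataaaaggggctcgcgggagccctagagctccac
The Cxcl10 promoter held GAAAGTGAAA, whose first base lies 213 bases before the start, and the kB matches GGGAAATTCC and GGGACTTCCC beginning 159 and 103 bases before it. The Cxcl1 promoter held overlapping kB matches on both strands, written above as 1 run that begins 71 bases before the start. The Cxcl9 window held neither motif, nor TTCNNNGAA, the gamma activated site, which says only that these letters are not in this window. The Cx3cl1 and Ccl21a windows, searched but not shown, held none of these motifs either. Of 32851 promoter windows extracted in the same way, 2.98% held the interferon response element core, 7.02% TTCNNNGAA and 3.9% the kB consensus. A match is a description of the letters and not evidence of binding.

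A filter of 500 or more genes and less than 10% mitochondrial UMIs retained 11744 of 12464 barcodes in PyMT (55547926 UMIs in all) and 9591 of 10236 in KPC (44441942 UMIs). Each was assigned in a fixed order by marker UMIs, in the pattern keratin-high (Krt8 and Krt18), fibroblast, lymphatic, pericyte, venule, artery, tip, capillary and other, where tip stands for Apln and Angpt2 positive cells, and venule, artery, tip and capillary together are the BECs. The numbers in PyMT and KPC were 379 and 794 keratin-high, 28 and 443 fibroblast, 633 and 802 lymphatic, 27 and 119 pericyte, 360 and 640 venule, 126 and 105 artery, 1991 and 1302 tip, and 2597 and 1297 capillary cells, with 5603 and 4089 left as other. Independent markers did not follow every class name. Epcam reached 170 CPM (UMIs of a gene per 1000000 UMIs of its class) in the KPC keratin-high class and only 19.7 CPM in the PyMT one. Krt19 was at 2789 CPM in KPC and 1.02 CPM in PyMT, and Krt7 at 1482 and 17.7 CPM, so the class is called by its rule. The summed capillary markers were 4794 CPM in PyMT capillary cells against 3956 CPM in PyMT venules, so their sum sets that class apart only weakly. Of these markers, Fabp4 was at 2742 against 3072 CPM and Cd36 at 321 against 400 CPM. Gpihbp1, at 1076 against 234 CPM, and Rgcc, at 655 against 249 CPM, did set it apart from venules. They did not set it apart from PyMT tip cells, where they were at 1168 and 766 CPM. Tip markers summed to 743 CPM in tip and 287 CPM in capillary cells of PyMT, and to 1255 and 567 CPM in KPC. Of these, Esm1 and Pgf were highest in tip cells in both libraries. Dll4 and Cxcr4 were higher in artery than in tip cells in both, and Kcne3 in KPC. The 27 PyMT cells of the pericyte class held these capillary markers at 10529 CPM and pan-endothelial markers at 2849 CPM, against 2773 CPM of pericyte markers, so that this class too is called by its rule in PyMT. The KPC pericyte class also held capillary markers at 4760 CPM and pan-endothelial markers at 2237 CPM, beside 5159 CPM of pericyte markers. Cells left as other held pan-endothelial markers at 2708 CPM in PyMT and 3798 CPM in KPC, against 2843 and 3651 CPM in BECs. Values given for BECs therefore leave out many cells with endothelial markers. The other class held 39.1% of Cxcl9 and 46.7% of Cxcl10 UMIs in PyMT, and 28.5% and 19.4% in KPC. Median depth in capillary cells was 4254 UMIs in PyMT and 1879 UMIs in KPC, whereas in venules it was 3486 and 3837. In all, 10.5% and 7.59% of kept barcodes met more than 1 class, 170 barcode sequences occurred in both libraries, and 96 and 138 barcodes carried 3 or more UMIs of immune genes and are called immune-marked.

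**Figure D1:**
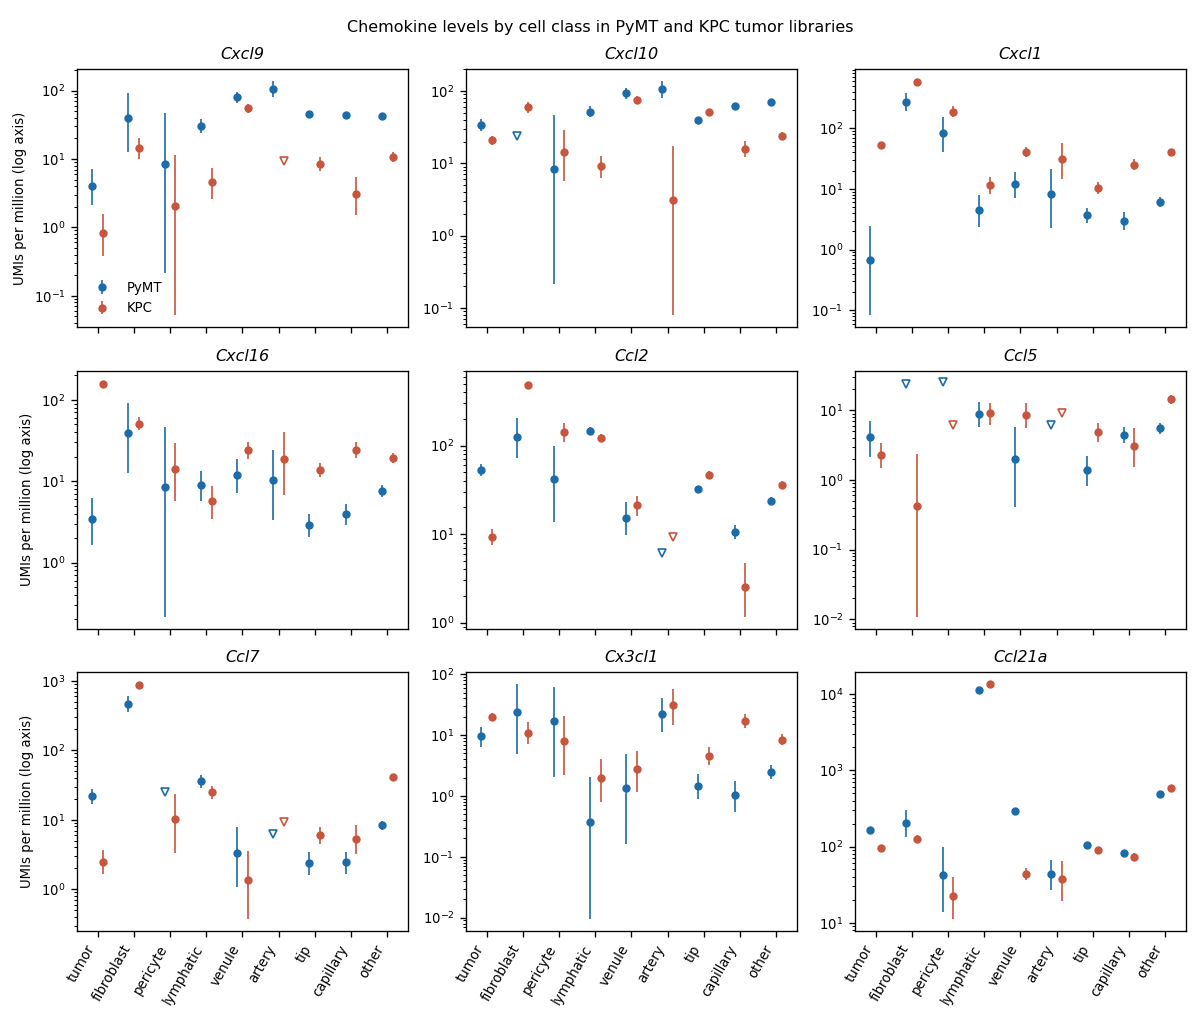
Levels of the 9 chemokine genes (CPM of summed UMIs, log axis) in each cell class (horizontal axis) of the PyMT and KPC libraries, with bars for exact Poisson 95% intervals and open triangles for classes with 0 UMIs, drawn at the level 3 UMIs would give. Ccl21a stands at 11477 and 13420 CPM in lymphatic cells, Ccl7 at 463 and 858 CPM in fibroblasts, and Cxcl16 at 157 CPM in the KPC keratin-high class.

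The interferon-linked CXCR3 ligands were highest in venules in KPC and were broadly spread in PyMT. Cxcl9 in PyMT was at 107 CPM in artery (79.6 to 140), 80.0 CPM in venule (66.3 to 95.7), 44.9 CPM in tip and 43.8 CPM in capillary cells. In KPC, Cxcl9 was at 54.6 CPM in venule (46.5 to 63.8), 8.49 CPM in tip and 3.08 CPM in capillary cells, and no UMI was found in the artery class, where 3 UMIs would be 9.27 CPM. The PyMT artery and venule levels overlapped within counting error, as did tip and capillary, whereas the KPC venule level lay above every other BEC class. In the keratin-high class Cxcl9 was at 4.07 CPM in PyMT and 0.827 CPM in KPC, and in lymphatic cells at 30.4 and 4.52 CPM.

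Cxcl10 followed Cxcl9 in part. In PyMT it was at 107 CPM in artery, 92.7 CPM in venule (77.9 to 109), 61.2 CPM in capillary and 39.8 CPM in tip cells. In KPC it was at 74.8 CPM in venule (65.2 to 85.4), 51.4 CPM in tip, 15.9 CPM in capillary and 3.09 CPM in artery, where it rested on 1 UMI. Outside the BECs, Cxcl10 was at 59.7 CPM in KPC fibroblasts and listed at 0 among the 28 PyMT fibroblasts, where 3 UMIs would be 23.6 CPM. Over the 9 classes the PyMT and KPC levels of Cxcl10, as log2(CPM + 1), had an r of -0.365 and those of Cxcl9 an r of 0.357, which are descriptions over classes that share a library. The gene Cxcl10 overlaps Art3 on the opposite strand, and the strand setting of the count is not given in the sources used here.

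After every cell was thinned to 2000 UMIs, so that depth was equal, Cxcl9 was found in 7.72% of 285 PyMT venules (4.90 to 11.5) and in 3.75% of 533 KPC venules (2.31 to 5.74). In capillary cells the share was 4.56% of 2367 in PyMT (3.76 to 5.48) and 1.01% of 597 in KPC (0.370 to 2.17), against 1.33% and 0.254% in the keratin-high cells. Without thinning, 9.44% and 4.53% of venules and 8.01% and 0.694% of capillary cells had a Cxcl9 UMI. Thinning left out 75 PyMT and 107 KPC venules, and 230 PyMT and 700 KPC capillary cells, which had fewer UMIs. For Cxcl10, the thinned share in venules was 5.96% in PyMT and 6.38% in KPC, and in capillary cells 3.55% and 1.17%, against 2.92% and 1.90% in keratin-high cells. The Cxcl10 share of KPC capillary cells was thus no higher than that of keratin-high cells, and in PyMT the intervals of the same classes overlapped.

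**Figure D2:**
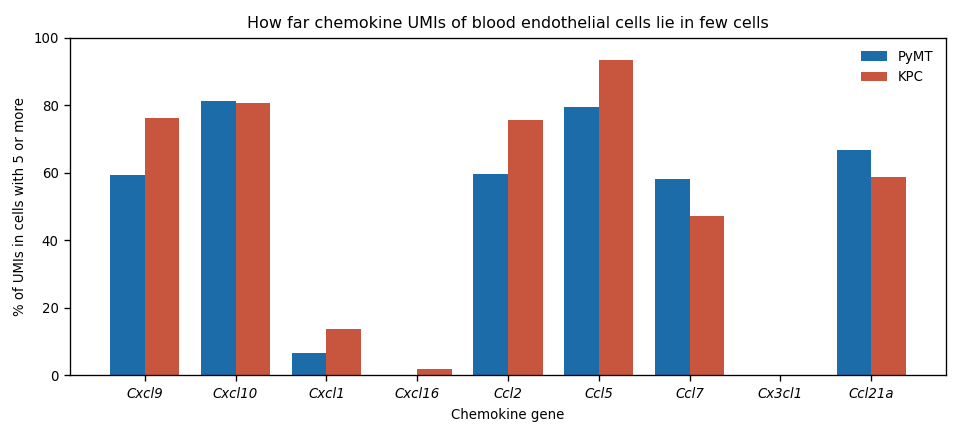
Share of each gene's BEC UMIs (vertical axis, %, starting at 0) that lay in cells with 5 or more UMIs of that gene, for PyMT and KPC. Cxcl10 and Ccl5 lay mostly in such cells in both libraries (81.1% and 80.6% for Cxcl10), whereas Cx3cl1 had none in either.

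Both CXCR3 ligands were concentrated in few cells. Of 1312 Cxcl9 UMIs in PyMT BECs, 59.4% lay in 74 of 5074 cells, and of 243 in KPC, 76.1% lay in 12 of 3344 cells. Of 1486 Cxcl10 UMIs in PyMT BECs, 81.1% lay in 72 cells, and of 713 in KPC, 80.6% lay in 22 cells, with 185 UMIs in a single tip cell. One venule held 68 of the 160 Cxcl9 UMIs of KPC venules, whose level without it was 31.5 CPM. One artery cell held 24 of 52 Cxcl9 UMIs in PyMT, and without it the artery level of Cxcl9 was 58.1 CPM. The same cells often carried both genes: in thinned PyMT BECs, Cxcl10 was found in 22.1% of 222 cells with Cxcl9 (16.8 to 28.1) and in 2.28% of 4478 cells without it. In KPC these shares were 36.1% of 36 cells and 1.83% of 2398 cells.

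Cells with high expression of a list of 20 interferon response genes, none of them a chemokine, carried most of both CXCR3 ligands. Thinned BECs with the most UMIs of this list, 546 of 4700 in PyMT (7 or more UMIs) and 246 of 2434 in KPC (9 or more), were set against the rest, with 322 and 152 cells within 1 UMI of the limit. Cxcl9 was at 298 against 16.7 CPM in PyMT, a log2 ratio of 4.15 (3.86 to 4.45), and at 179 against 3.88 CPM in KPC, a log2 ratio of 5.52 (4.76 to 6.37). Cxcl10 was at 380 against 8.55 CPM in PyMT, a log2 ratio of 5.47, and at 419 against 6.86 CPM in KPC, a log2 ratio of 5.93. No other member had an interval without 0 in this comparison except Cx3cl1, at 1.71 (0.04 to 3.18) in PyMT and 1.27 (0.09 to 2.30) in KPC. These are descriptions of cells within 1 library.

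**Figure D3:**
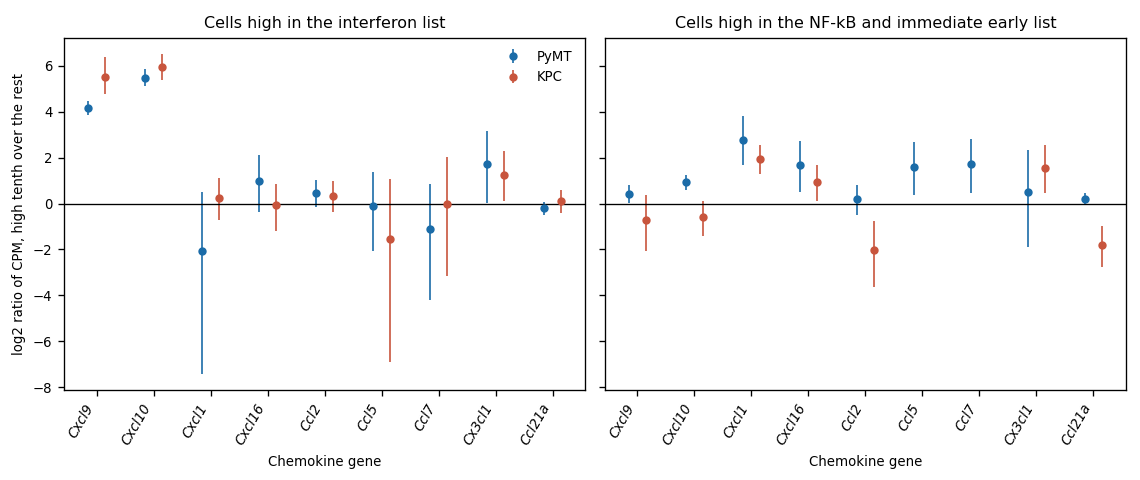
Log2 ratio of CPM (vertical axis) of each chemokine gene between thinned BECs high in a gene list and the rest, for the interferon list (left) and the NF-kB and immediate early list (right), with 95% counting intervals; genes without a point had 0 UMIs in the high cells. Cxcl9 and Cxcl10 lie at 4.15 to 5.93 on the left, and Cxcl1 lies at 2.76 and 1.93 on the right.

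Cxcl1, the neutrophil attractant, was highest in fibroblasts in both libraries and next in the class called by pericyte genes. In PyMT it was at 275 CPM in fibroblasts (191 to 382) and 84.0 CPM in the pericyte class, where the markers of capillary cells were above those of pericytes, against 12.0 CPM in venule, 8.20 CPM in artery, 3.69 CPM in tip and 2.99 CPM in capillary cells. In KPC it was at 578 CPM in fibroblasts (548 to 609), 187 CPM in the pericyte class, 52.4 CPM in keratin-high cells, 41.0 CPM in venule, 30.9 CPM in artery, 25.2 CPM in capillary and 10.4 CPM in tip cells. Between the libraries its levels over the 9 classes had an r of 0.842. In the keratin-high class, however, PyMT held 2 UMIs and KPC 570. After thinning, Cxcl1 was found in 0.574% of PyMT BECs and 3.57% of KPC BECs (2.87 to 4.39), against 1.02% and 1.79% of lymphatic cells. Unthinned, these BEC shares were 1.62% and 6.31%, and no BEC held more than 15 Cxcl1 UMIs.

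Cxcl1 was higher in BECs with most UMIs of a list of 20 NF-kB target and immediate early genes, which includes Icam1, Sele, Fos and Egr1. Sele itself was at 56.0 CPM in venule against 2.52 CPM in capillary cells in PyMT, and at 57.4 against 4.75 CPM in KPC. The vessel class was not held fixed, and its part in these ratios was not tested. The high cells were 514 of 4700 in PyMT (14 or more UMIs) and 255 of 2434 in KPC (36 or more), with 184 and 42 cells within 1 UMI of the limit. Cxcl1 was at 14.6 against 2.15 CPM in PyMT, a log2 ratio of 2.76 (1.67 to 3.83), and at 66.7 against 17.4 CPM in KPC, a log2 ratio of 1.93 (1.31 to 2.54). Cxcl16 was also higher in these cells in both libraries, with log2 ratios of 1.68 (0.52 to 2.73) and 0.93 (0.13 to 1.66). In PyMT Ccl7 with 1.70 (0.48 to 2.81), Ccl5 with 1.59 (0.38 to 2.68), Cxcl10 with 0.93 (0.58 to 1.26) and Cxcl9 with 0.41 (0.01 to 0.79) were higher as well. The PyMT intervals of Ccl2, Cx3cl1 and Ccl21a contained 0. In KPC Cx3cl1 was higher, with 1.55 (0.47 to 2.53), whereas Ccl2 with -2.02 (-3.66 to -0.77) and Ccl21a with -1.82 (-2.78 to -0.99) were lower. The KPC intervals of Cxcl10 and Cxcl9, around -0.59 and -0.71, contained 0, and Ccl5 and Ccl7 had 0 UMIs in the high cells.

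Cxcl16, the membrane-bound CXCR6 ligand, was mainly a keratin-high cell transcript in KPC, where this class held 72.6% of all its UMIs. It was at 157 CPM there (149 to 164), against 50.8 CPM in fibroblasts, 24.3 CPM in capillary, 23.9 CPM in venule, 18.5 CPM in artery, 13.8 CPM in tip and 5.65 CPM in lymphatic cells. In PyMT the keratin-high level was 3.40 CPM, and the BEC classes stood between 2.92 CPM in tip and 12.0 CPM in venule cells. Between the libraries its levels over the 9 classes had an r of -0.0012. The thinned share of cells with Cxcl16 was 24.6% in KPC keratin-high cells, 4.03% in KPC BECs (3.28 to 4.89) and 1.30% in KPC lymphatic cells. In PyMT it was 0.787% in BECs and 0.796% in keratin-high cells, so the PyMT endothelial share did not stand above that of keratin-high cells. Unthinned, the KPC shares were 72.7%, 7.39% and 2.49%, and the PyMT shares 2.01% in BECs and 2.11% in keratin-high cells. Cxcl16 was spread over many cells, with at most 5 UMIs in a BEC. Cxcl16 overlaps Zmynd15 on the opposite strand.

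Cx3cl1, the membrane-bound ligand that holds CX3CR1-positive monocytes and lymphocytes on endothelium, was highest among BECs in artery in both libraries. In PyMT it was at 22.6 CPM in artery (11.3 to 40.4), 1.46 CPM in tip, 1.33 CPM in venule and 1.02 CPM in capillary cells. In KPC it was at 30.9 CPM in artery (14.8 to 56.9), 17.1 CPM in capillary (13.0 to 21.9), 4.60 CPM in tip and 2.73 CPM in venule cells. The artery values rest on 11 and 10 UMIs, and the KPC artery and capillary levels overlapped. The keratin-high class was at 9.51 CPM in PyMT and 20.0 CPM in KPC, and held 46.6% of the KPC UMIs. Thinned shares in artery were 5.61% and 4.48%, and in capillary cells 0.253% in PyMT and 3.85% in KPC, against 0 of 489 lymphatic cells in PyMT, which allows a share of up to 0.752%, and 0.488% in KPC. Unthinned artery shares were 7.94% and 7.62%. No BEC held more than 3 Cx3cl1 UMIs.

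Among the CCR2 ligands, Ccl2 was high in fibroblasts and lymphatic cells and, within BECs, in tip cells. In PyMT, Ccl2 was at 148 CPM in lymphatic (133 to 163), 126 CPM in fibroblast (71.8 to 204), 53.7 CPM in keratin-high, 32.0 CPM in tip, 15.3 CPM in venule and 10.6 CPM in capillary cells. In KPC it was at 490 CPM in fibroblast (462 to 519), 142 CPM in pericyte, 122 CPM in lymphatic, 46.5 CPM in tip, 21.2 CPM in venule and 2.52 CPM in capillary cells. Artery cells held 0 Ccl2 UMIs in both libraries, where 3 UMIs would be 6.15 CPM in PyMT and 9.27 CPM in KPC. Of the BEC UMIs, 59.6% lay in 31 cells in PyMT and 75.7% in 17 cells in KPC. Ccl2 in BECs was higher where the lymphatic genes Mmrn1 and Prox1 were found. At 0, 1 and 2 UMIs of these it was at 17.1, 37.4 and 327 CPM in PyMT. In KPC it was at 22.0, 252 and 357 CPM. The BECs with 2 such UMIs, just under the lymphatic cut-off of 3, were 50 and 19 cells, of which 5 and 4 had a Ccl2 UMI. The part of lymphatic RNA in the BEC level of Ccl2 was not tested. The thinned share of tip cells with Ccl2 was 2.58% and 2.67%, and of capillary cells 1.56% and 0.503%, against 7.96% and 0.635% of keratin-high cells and 0 of 107 and 0 of 67 artery cells. The artery shares allow up to 3.39% and 5.36%, so the tip shares did not stand apart from them at this depth. No class here is known to lack Ccl2, and the part of free RNA in the BEC shares was not tested. Unthinned, 5.48% and 5.68% of tip cells had a Ccl2 UMI. Ccl2 overlaps Gm17268 on the opposite strand.

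Ccl7 was mainly a fibroblast transcript only in KPC, where this class held 75.5% of its UMIs. The 28 PyMT fibroblasts held 12.8%, against 38.3% for other, 20.6% for lymphatic and 13.9% for keratin-high cells. By level, fibroblasts still ranked first in both libraries. Their PyMT value was 463 CPM (353 to 598), and their KPC value was 858 CPM (821 to 897). Lymphatic cells were next among the endothelial classes, at 35.6 and 24.9 CPM, and no BEC class passed 6.02 CPM. Immune-marked barcodes, which can belong to any class, held Ccl7 at 171 CPM in PyMT and 316 CPM in KPC, and Ccl2 at 121 and 230 CPM. The thinned share of BECs with Ccl7 was 0.277% and 0.370%, against 3.45% and 0.254% of keratin-high cells. Between the libraries the levels of Ccl7 and Ccl2 over the 9 classes had an r of 0.800 and 0.863.

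Ccl5 was rare in every class and moved with immune transcripts, most clearly in KPC. In PyMT it was at 9.0 CPM in lymphatic, 5.52 CPM in other, 4.49 CPM in capillary, 2.00 CPM in venule and 1.38 CPM in tip cells. In KPC it was at 14.4 CPM in other, 9.05 CPM in lymphatic, 8.54 CPM in venule, 4.84 CPM in tip and 3.08 CPM in capillary cells. Artery and pericyte cells held 0 UMIs in both libraries. Immune-marked barcodes were at 76.9 CPM in PyMT and 299 CPM in KPC, where summed T and NK cell markers were 71.7 and 260 CPM and summed myeloid markers 2285 and 4836 CPM. These marker sums are partly set by the choice of barcodes. Cd3e and Cd3g of the first list, and Ptprc, Tyrobp and Fcer1g of the second, were the genes used for that choice. In BECs the T and NK cell markers summed to 0.794 and 4.83 CPM, and the myeloid markers to 19.6 and 57.6 CPM, with Cd3e, which defines T cells, at 0. Without the 166 PyMT and 130 KPC BECs that held any immune UMI, Ccl5 went from 2.82 to 1.66 CPM in PyMT and from 5.03 to 0.828 CPM in KPC. The thinned share of BECs with Ccl5 was 0.213% and 0.164%, against 0.796% and 0.254% of keratin-high cells. In KPC venules 25 Ccl5 UMIs became 2 and in KPC capillary cells 11 became 0.

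Ccl21a, the ligand that CCR7-positive dendritic cells follow into lymph, marked lymphatic cells in both libraries with a PyMT level of 11477 CPM (11349 to 11607) and a KPC level of 13420 CPM (13299 to 13541). These cells held 69.2% and 83.9% of its UMIs. In BECs Ccl21a was at 103 and 75.5 CPM. By class it was at 291 CPM in venule, 104 CPM in tip, 82.6 CPM in capillary and 43.1 CPM in artery in PyMT, and at 44.1, 88.9, 72.7 and 37.1 CPM in the same order in KPC. After thinning, 83.4% and 88.9% of lymphatic cells had a Ccl21a UMI, but so did 7.70% of PyMT BECs and 6.78% of KPC BECs, and 9.81% and 6.09% of keratin-high cells. The BEC shares were close to those of keratin-high cells, so they do not by themselves show Ccl21a expression in BECs. The part of free RNA in them was not tested. Unthinned, the shares were 17.4% and 13.5% of BECs and 25.6% and 33.2% of keratin-high cells. Symbols Ccl21b and Ccl21c name near-identical copies that held 0 UMIs in PyMT and 2 in KPC, so how reads were split among the copies is uncertain, and Ccl21a overlaps 4930578G10Rik on the opposite strand.

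**Figure D4:**
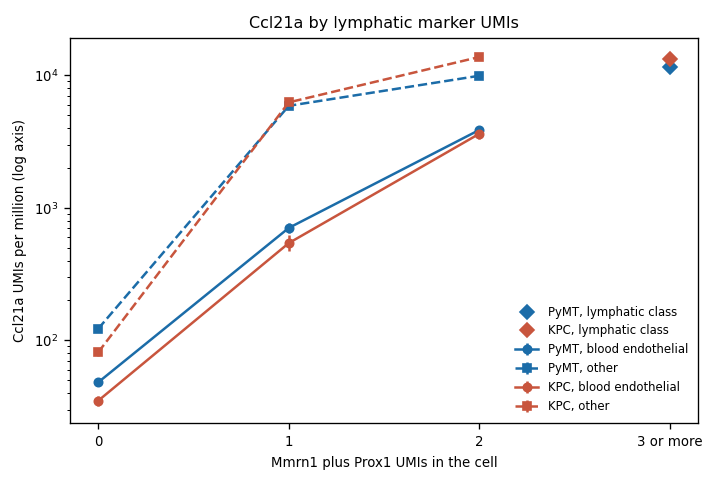
Ccl21a level (CPM, log axis) in BECs and in cells of no class, by their number of UMIs of the lymphatic genes Mmrn1 and Prox1, with exact Poisson 95% intervals. In BECs the level goes from 48.2 to 705 to 3875 CPM at 0, 1 and 2 UMIs in PyMT and from 35.0 to 542 to 3626 CPM in KPC.

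Outside the lymphatic class Ccl21a moved with lymphatic transcripts. BECs with 0, 1 and 2 UMIs of Mmrn1 and Prox1 held Ccl21a at 48.2, 705 and 3875 CPM in PyMT and at 35.0, 542 and 3626 CPM in KPC. The lymphatic gene Lyve1, which the class rule did not use, went along, at 4.75, 84.8 and 331 CPM in PyMT and 13.8, 190 and 553 CPM in KPC. Cells of no class showed the same order, at 122, 5896 and 9942 CPM in PyMT and 81.2, 6260 and 13774 CPM in KPC. Those with 2 UMIs held Lyve1 at 676 and 1646 CPM, against 872 and 1846 CPM in the lymphatic class. Cells with 1 or 2 UMIs lie just under the cut-off, so the order is partly set by the split. The share of lymphatic cells among them was not tested.

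Across BEC classes, a gene was called when its CPM differed by 2-fold or more with an interval without 0, among genes with at least 10 UMIs in both classes together. In venules over capillary cells, 3 members were higher in PyMT, against 4.65% of 11738 genes. They were Cxcl1 with a log2 ratio of 2.00 (1.11 to 2.85), Ccl21a with 1.82 (1.65 to 1.98) and Cxcl16 with 1.61 (0.74 to 2.41), and the median was 0.60 over the members and 0.05 over all genes. In KPC 4 members were higher, against 3.67% of 11186 genes, and 2 were lower, against 5.46%, with medians of 0.70 and -0.05. The higher ones were Cxcl9 with 4.15 (3.27 to 5.18), Ccl2 with 3.07 (2.06 to 4.27), Cxcl10 with 2.23 (1.80 to 2.68) and Ccl5 with 1.47 (0.40 to 2.64), and the lower ones Cx3cl1 with -2.64 (-3.92 to -1.57) and Ccl7 with -1.96 (-3.97 to -0.37). Without the cell with most UMIs, Cxcl9 stood at 3.81 and Ccl2 at 2.42, whereas Ccl5 gave no value without it or without immune UMIs. Ccl2 went to 1.33 without cells that met more than 1 class. Of the members called in KPC, Cxcl9 stood at 0.87, Cxcl10 at 0.60, Ccl2 at 0.53 and Ccl5 at -1.17 in PyMT. Ccl7 stood at 0.45 and Cx3cl1 at 0.38 there. Of those called in PyMT, Cxcl1 stood at 0.70, Cxcl16 at -0.03 and Ccl21a at -0.72 in KPC. The difference between the libraries was not tested.

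Artery over capillary cells gave 2 higher members in PyMT, against 5.82% of 11613 genes. These were Cx3cl1, with a log2 ratio of 4.46 (3.16 to 5.74), and Cxcl9, with 1.28 (0.85 to 1.70), which went to 0.47 without the artery cell with most Cxcl9 UMIs. The median was 1.28 over the 7 members with a value, Ccl2 taken at its bound, and 0.12 over all genes. In KPC 0 members were called, against 8.48% of 10512 genes in either direction, and Cx3cl1 stood at 0.86 (-0.27 to 1.83). The medians were -0.39 over the 5 members with a value and 0.01 over all genes.

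Tip over capillary cells shared a higher Ccl2. In PyMT Ccl2 had a log2 ratio of 1.59 (1.31 to 1.88), the only member higher, against 0.878% of 12305 genes, and Ccl5, with -1.70 (-2.55 to -0.91), was the only one lower, against 1.7%. Of the 78 Ccl5 UMIs in PyMT BECs, 62 lay in 4 cells. In KPC 3 members were higher, against 2.84% of 11780 genes, namely Ccl2 with 4.21 (3.27 to 5.35), Cxcl10 with 1.69 (1.29 to 2.11) and Cxcl9 with 1.47 (0.54 to 2.53). Cx3cl1 with -1.89 (-2.51 to -1.29) and Cxcl1 with -1.28 (-1.72 to -0.84) were lower in KPC, against 7.37%. The median was 0.04 over the members and -0.01 over all genes in PyMT, and 0.29 and -0.08 in KPC. Beside the lower Cxcl1, 14 of the 20 NF-kB and immediate early genes were lower in KPC tip cells, against the same 7.37% of all genes. When the classes were set on counts thinned to 2000 UMIs, Ccl2 stood at 0.83 in PyMT and 4.76 in KPC, and Cxcl10 at 0.01 in KPC.

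Lymphatic cells over BECs gave 5 higher members in PyMT, against 11.4% of 12774 genes, and 3 in KPC, against 9.84% of 12641 genes. Ccl21a was first in both, with log2 ratios of 6.80 (6.74 to 6.85) and 7.47 (7.39 to 7.56). Ccl7 had 3.88 (3.41 to 4.35) and 2.36 (1.90 to 2.83), and Ccl2 2.83 (2.64 to 3.02) and 2.01 (1.82 to 2.20). In PyMT Ccl5, with 1.68 (0.95 to 2.35), and Cxcl16, with 1.17 (0.47 to 1.81), were also higher. The Ccl5 ratio rests on 24 lymphatic UMIs and on 78 in BECs, 62 of them in 4 cells. In KPC 4 members were lower, against 7.75% of genes, namely Cxcl10 with -2.36 (-2.92 to -1.85), Cx3cl1 with -1.96 (-3.31 to -0.87), Cxcl9 with -1.81 (-2.64 to -1.08) and Cxcl16 with -1.69 (-2.43 to -1.04). Medians were 1.17 over the members and 0.12 over all genes in PyMT, and -0.80 and 0.05 in KPC. Of the fibroblast markers, Dcn was at 331 and 148 CPM in lymphatic cells and 7.54 and 13.5 CPM in BECs, and Pdgfra was at 0.37 and 0.85 CPM against 0.25 and 0.46 CPM. With classes set on thinned counts Ccl2 went to 0.07 in KPC and to 2.47 in PyMT.

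**Figure D5:**
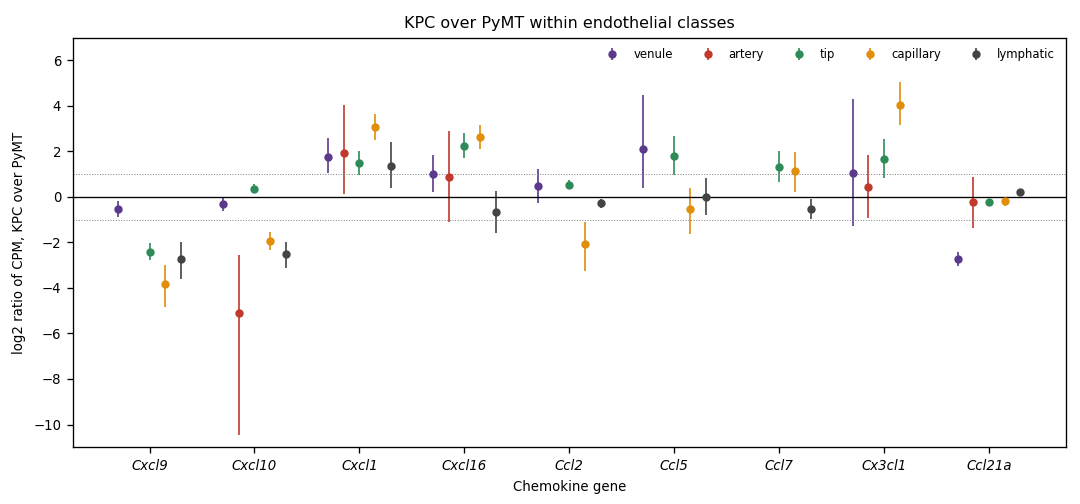
Log2 ratio of CPM, KPC over PyMT (vertical axis), of each chemokine gene in 5 endothelial classes, with 95% counting intervals and dotted lines at a 2-fold difference; classes with fewer than 10 UMIs in both libraries together, or 0 in one, have no point. Cxcl1 lies above 1 in every class, from 1.37 in lymphatic to 3.07 in capillary cells, and Cxcl9 lies between -0.55 in venule and -3.83 in capillary cells.

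Between the libraries, KPC BECs held more Cxcl1, Cxcl16 and Cx3cl1 and less Cxcl9. In BECs as a whole Cxcl1 was at 20.1 CPM in KPC and 3.90 CPM in PyMT, a log2 ratio of 2.37 (2.05 to 2.70). Cx3cl1 was at 7.71 against 1.62 CPM, a log2 ratio of 2.25 (1.74 to 2.78), and Cxcl16 at 18.3 against 4.01 CPM, a log2 ratio of 2.19 (1.87 to 2.52). These 3 members were called higher against 8.27% of 13260 genes. Cxcl9, at 15.9 against 47.4 CPM with a log2 ratio of -1.58 (-1.78 to -1.38), was the only member lower, against 2.54%. Cxcl10 stood at -0.20, Ccl2 at 0.55, Ccl5 at 0.84, Ccl7 at 1.0 just short of 2-fold, and Ccl21a at -0.45, and the median was 0.84 over the members and 0.12 over all genes. With classes set on thinned counts Cxcl9 went to -0.73, short of the call, whereas Cxcl1, Cxcl16 and Cx3cl1 stayed between 2.06 and 2.83 in all 12 alternatives. Without endothelial barcodes that held fibroblast or keratin UMIs, the log2 ratios were 2.34 for Cxcl1, 2.24 for Cxcl16 and 2.25 for Cx3cl1, whereas Ccl7 went to 0.11. Without immune UMIs Ccl5 went to -1.0.

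The lower Cxcl9 of KPC was unequal among classes. Its log2 ratio was -0.55 (-0.90 to -0.20) in venule, -2.40 (-2.78 to -2.05) in tip, -3.83 (-4.84 to -2.98) in capillary and -2.75 (-3.62 to -1.96) in lymphatic cells. Cxcl10 stood at -0.31 in venule, 0.37 in tip, -1.94 in capillary (-2.35 to -1.55) and -2.53 in lymphatic cells (-3.13 to -1.96). The intervals of venule and capillary cells did not overlap for either gene, and the difference between classes was not tested. Capillary cells were also shallower in KPC (median 1879 UMIs against 4254), and the part of depth in their class assignment was tried only through thinned counts over all BECs, given above. In artery cells Cxcl10 stood at -5.11 (-10.44 to -2.57) on 1 KPC UMI against 52 in PyMT. The PyMT artery level depended on the processing. There the log2 ratio of Cxcl10 in artery over capillary cells was 0.80, and from -1.34 to 1.09 over 11 alternatives. Genes were called lower at 2.14% in venule, 1.97% in artery, 2.18% in tip, 3.54% in capillary and 1.89% in lymphatic cells. Over all 20 interferon response genes 2 were higher in KPC BECs (Irf1 and Gbp5) and 0 lower, with a median of 0.20. Over all genes 8.27% were higher and 2.54% lower in KPC BECs.

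The higher Cxcl1 of KPC was seen in each endothelial class with a value, at 1.77 (1.05 to 2.57) in venule, 1.91 (0.12 to 4.04) in artery, 1.49 (0.97 to 2.03) in tip, 3.07 (2.51 to 3.66) in capillary and 1.37 (0.41 to 2.43) in lymphatic cells. Cxcl16 was higher in tip (2.24) and capillary cells (2.63), stood at 0.99 in venule and went to -0.67 in lymphatic cells. Cx3cl1 was higher in capillary (4.06, 3.18 to 5.05) and tip cells (1.66, 0.83 to 2.53), and stood at 0.45 in artery (-0.94 to 1.83). Ccl21a was lower in KPC venules, at -2.73 (-3.02 to -2.44). Genes were called higher at 3.1% in venule, 4.9% in artery, 5.26% in tip, 11.2% in capillary and 2.13% in lymphatic cells. Of the 20 NF-kB and immediate early genes, 13 were higher in KPC BECs, against 8.27% of all genes, and 0 lower, against 2.54%. Their median was 1.35. The list holds Sele, at 13.3 CPM in KPC and 4.73 CPM in PyMT BECs but at 57.4 and 56.0 CPM in venules. Venules were 640 of 3344 BECs in KPC and 360 of 5074 in PyMT. Neither the part of this make-up in the count nor the part of these genes in the Cxcl1 difference was tested.

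Keratin-high cells differed most in Cxcl1 and Cxcl16, with log2 ratios KPC over PyMT of 6.27 (4.41 to 9.32) and 5.53 (4.64 to 6.59), against 13.5% of 12533 genes called higher. Cx3cl1 was also higher, with 1.08 (0.50 to 1.70). Ccl7 with -3.13 (-3.84 to -2.46), Ccl2 with -2.53 (-2.91 to -2.16) and Cxcl9 with -2.30 (-3.73 to -0.93) were lower, against 12.5%. Epcam, Krt19 and Krt7 also differed between the keratin-high classes, as given above, so these ratios can compare unlike cells. In fibroblasts Ccl2 was higher with 1.96 (1.26 to 2.77), Cxcl1 with 1.07 (0.59 to 1.60) and Cxcl10 with at least 1.34 against 0 UMIs, against 2.02% of 10224 genes, and Ccl7 stood at 0.89 (0.52 to 1.29).

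Among the other chemokine genes, 28 of 29 listed were counted, and Cxcl11 was not analysed here. In BECs 17 had enough UMIs, of which 9 were higher in KPC (Cxcl2, Cxcl5, Cxcl12, Ccl4, Ccl11, Ccl24, Ccl27a, Pf4 and Ppbp) and 3 lower (Ccl8, Ccl12 and Ccl20), with a median of 1.25. Over all genes 8.27% were higher and 2.54% lower. Summed myeloid markers were also higher in KPC than in PyMT BECs, as given above. Values without immune UMIs are not given for these genes, so the list does not show which cells made the RNA. In lymphatic cells over BECs 10 of the 28 counted were higher and 1, Cxcl12, lower in each library. Over all genes 11.4% were higher in PyMT and 9.84% in KPC, and 7.75% were lower in KPC. No lower share is given for PyMT, so the lower Cxcl12 there has nothing beside it. Of 22 chemokine receptors, 8 had enough UMIs between the libraries and 3 were higher in KPC BECs, against 8.27% of all genes. They were Ccr2, Ccr10 and Ackr1, the last a decoy receptor and venule marker that the class rule used. The receptor genes Cxcr2, Cxcr3 and Cxcr6 held 0 UMIs in BECs of both libraries. Ccr2 reached 84.2 CPM in the immune-marked KPC barcodes.

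Genes most like each member were those with the highest smaller r over the 9 classes in PyMT and KPC, among 9462 genes with at least 200 UMIs in each library. For Ccl21a these were Slc45a3, Dtx1 and Gpm6a (0.949 for the first), for Cxcl1 Ccdc80, Rarres2 and Meg3 (0.922), for Ccl7 Colec12, Mmp3 and Dzip3 (0.906), and for Ccl2 Samd4, Dzip3 and Mob3a (0.893). For Cxcl16 they were Trim33, Fbxo33 and Prkci (0.850), for Ccl5 Stmn1, Kif22 and Zfp511 (0.848), and for Cxcl10 Mcat, Hyou1 and Zpr1 (0.824). For Cxcl9 they were Pccb, Dmac1 and Gm49336 (0.823) and for Cx3cl1 Zfyve19, Emp2 and S100a1 (0.823). The classes of a library share its depth and free RNA, and the values describe these libraries only. Each r rests on 9 classes, some with few UMIs, and is the best of a search over 9462 genes. A high value can therefore come from the search alone. Between the libraries Cxcl10 and Cxcl16 had an r of -0.365 and -0.0012 with themselves.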

How the data were processed

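The authors aligned reads of both droplet libraries to mm10 with Cell Ranger (3.0 in the submitters' processing notes, 3.0.2 in the matrix headers) and deposited UMI counts per gene and barcode, raw and as whole numbers. Per-cell annotation was not used here. Kept barcodes had 500 or more genes and less than 10% mitochondrial UMIs, and classes used summed UMIs of keratin (5 or more), collagen (10), lymphatic (3), pericyte (2), venule (3), artery (2), tip (3) and capillary genes (2), in that order. No doublet was removed. Leaving out the 8% of barcodes with most UMIs was tried in place of a caller.

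Levels are CPM of summed UMIs with exact Poisson intervals, log2 ratios have exact binomial (Clopper-Pearson) intervals from both sums, and Clopper-Pearson intervals were also used for shares, always at 95%. UMIs are counted molecules, and the intervals leave out variation between animals, libraries and cells. They treat the UMIs of a class as independent, so they are too narrow where few cells hold most UMIs of a gene. This holds for the calls and overlaps that use them too. Where a class held 0 UMIs, the level of 3 UMIs per class was the floor. Shares were thinned to 2000 UMIs per cell. Each library is 1 sample, so there was no test. The call rule was 2-fold or more with an interval without 0 and at least 10 UMIs in both classes together. It was tested on simulated counts with known changes before use.

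The members, gene lists, named-gene rule (all 9 members, list genes called in a main comparison, and the 3 genes most like each member) and tests were chosen with earlier results of these data known. In all 12 alternatives were tried, 3 of them chosen after seeing the data. Python 3.11.15, numpy 2.4.6, scipy 1.17.1, pandas 2.3.3 and matplotlib 3.10.9 were used.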

Additional observations from a re-analysis of the deposited data

Results flagged for a closer look

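Members are given here whose log2 ratios under the same contrast had intervals on opposite sides of 0 in the 2 libraries. A 2-fold difference was not required, and no share of all genes is given beside them. With 1 library per model these differences were not tested.

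In venules over capillary cells Ccl21a had a log2 ratio of 1.82 in PyMT and -0.72 in KPC. Without BECs that held lymphatic UMIs the values were 2.29 and -0.09. In PyMT venules 106 of 437 Ccl21a UMIs lay in 1 cell, and without the cell with most UMIs in each class the PyMT value was 1.58.

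In tip over capillary cells Cxcl10 had a log2 ratio of -0.62 in PyMT and 1.69 in KPC. In KPC 185 of the 436 tip UMIs lay in 1 cell. Without the cell with most UMIs in each class the KPC value was 1.60, and with classes set on thinned counts it was 0.01.

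In lymphatic cells over BECs Cxcl16 had a log2 ratio of 1.17 in PyMT and -1.69 in KPC. The BEC level was 4.01 CPM in PyMT and 18.3 CPM in KPC, and the lymphatic level 9.0 and 5.65 CPM.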

How the results depend on the processing

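No paired analysis was possible because each tumor model had 1 library. The count of called members stayed within 1.5 times its value in 85 combinations of comparison and alternative and not in 15. In artery over capillary cells of PyMT (2 members called) it was 4 with 1000 or more genes and less than 5% mitochondrial UMIs required, with thresholds raised by 1 UMI, with classes on thinned counts and without the 8% of barcodes with most UMIs, and 1 without the barcode with most UMIs of the member. In KPC (0 called) it was 1 under those first 4 alternatives, without immune UMIs, with the mean of CPM per cell and without fibroblast or keratin UMIs. Venules over capillary cells of PyMT gave 5 in place of 3 with raised thresholds. Tip over capillary cells gave, on thinned counts, 1 in place of 2 in PyMT and 3 in place of 5 in KPC. The cause was not tested.

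Among single members 2 called values changed sign. Ccl5 in KPC venules over capillary cells went from 1.47 to -2.38 with at least 1000 genes (2 against 11 UMIs), and Cxcl9 in PyMT artery over capillary cells from 1.28 to -2.59 on thinned counts (1 against 185 UMIs). Another 136 values of single members moved beyond their counting interval, and 685 did not. Scaling the libraries by the median ratio of 13170 genes in place of total UMIs shifted KPC over PyMT by 0.12 on the log2 scale and left 4 members called. Artery classes, with 126 and 105 cells, and members with under 10 UMIs are limited by depth, and a value of 0 there does not show absence.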
